A study of Mus musculus with 51 samples.

Results

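The comparison described here set CD8+ T cells that carried neither CD103 nor CD69 on their surface, sorted from mouse mammary tumors at week 4, against the same kind of cell at week 2. They are called double negative, or DN, cells. Their libraries were picked by title and matched to the deposited table by library code. There were 8 DN libraries of weeks 2 to 6 among the 43 untreated libraries and the 51 of the whole series. At week 4 there were 3 libraries, at week 2 there were 3, and at week 6, shown as the next point, there were 2. Every tumor was AT3-OVA, a mouse mammary carcinoma line carrying ovalbumin as a model antigen, and the labels give the treatment as none. The host strain, its age, the event from which weeks were counted and whether a library came from 1 animal or a pool are not given in the sources used here. The p-values therefore measure the spread between libraries. That spread was pooled over all 15 untreated groups. These also hold other weeks of the tumor subsets and naive, central memory and effector memory T cells from control spleen. Subsets used for comparison were the CD103+CD69+ cells, called DP, with 3 libraries at week 4 and 4 at week 2, and the CD103-CD69+ cells, called SP, with 2 libraries at week 4 and 3 at week 2. Reads came from QuantSeq, a stranded method that reads a tag near the 3' end of each transcript.

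CD103 binds E-cadherin and holds T cells against epithelium. CD69 pulls the sphingosine-1-phosphate receptor S1PR1 off the cell surface, which keeps a T cell from following the lipid out into lymph and blood. A CD8+ T cell with neither protein is the form that can still recirculate, and in tumors this pool is known to hold recently arrived effector cells and memory cells with the transcription factor TCF-1, encoded by Tcf7. Antigen contact in tissue is known to switch on immediate early genes, NF-kappaB target genes and checkpoint receptors, and interferon is known to switch on antiviral and MHC class I genes.

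The week 4 libraries were not 3 equally separate samples. Replicates 1 and 2 differed by a median of 0.0193 log2 units per gene, against a median of 0.189 over the 42 pairs of libraries of the same group. The next closest such pair, in spleen, differed by 0.0881 and the farthest by 0.362. Replicates 1 and 3 differed by 0.188, and replicates 2 and 3 by 0.187. Counts were not used here, so sampling noise could not be computed, but the pair differed by less than any other replicates of the table and was counted as 1 sample. Every mean and test below uses their average as 1 replicate, which leaves n = 2 at week 4 and n = 3 at week 2. Values of all 3 libraries are still given.

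**Figure D1:**
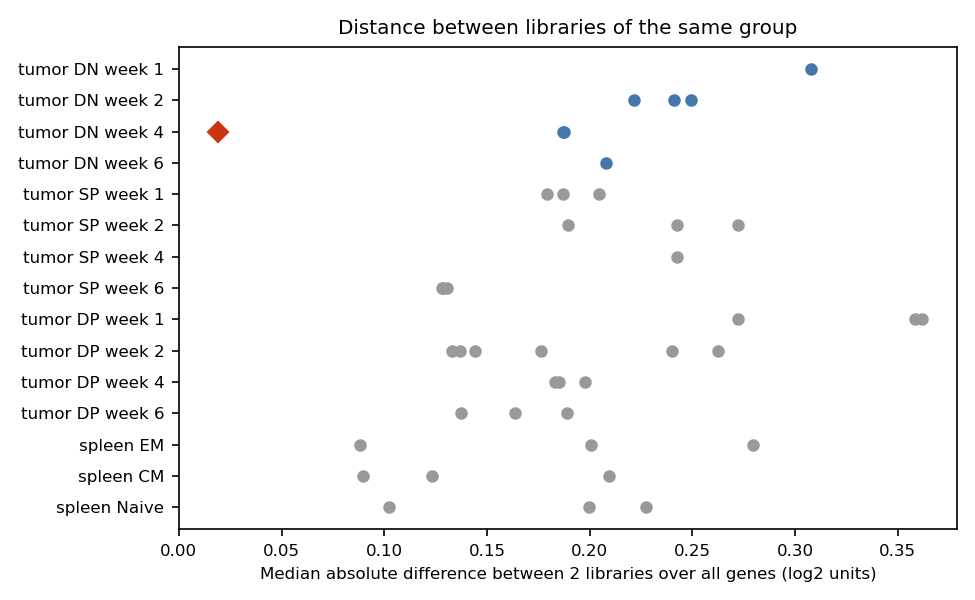
Each point is a pair of libraries of the same group, placed by the median absolute difference over all genes in log2 units, with DN groups in blue. The red diamond is week 4 replicates 1 and 2 at 0.0193, and no other pair lies below 0.0881.

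The deposited values are normalised and log-scaled, and are read here as log2. They are not abundances, because gene means run far below 0 and far above what a read count could give, so a level says nothing of how much of a transcript there was and only differences within a gene are used. Depth per library is unknown. In bulk samples of this kind fewer cells of a type and less RNA per cell cannot be told apart. A gene was called when limma, fitted to all 15 untreated groups, gave a Benjamini-Hochberg adjusted p below 0.05 over all 10560 genes.

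The sort label was checked first. S1pr1 encodes the egress receptor and sits at 115710433 to 115715072 of chromosome 3, minus strand, in mm10. It was higher in DN cells than in both CD69+ subsets at weeks 2 and 4. At week 4 the difference was 2.76 (SE 0.54, adjusted p = 0.0021) from DP cells and 3.46 (SE 0.59, adjusted p = 0.00184) from SP cells. At week 2 it was 2.67 from DP cells (adjusted p = 0.00807) and 2.74 from SP cells (adjusted p = 0.0149). Tcf7 was 0.97 higher in DN than in DP cells (adjusted p = 0.0352) and 1.86 higher than in SP cells (adjusted p = 0.00226) at week 4. At week 2 its differences of 0.84 and 0.65 did not pass the test (adjusted p = 0.109 and 0.332). Itgae, which encodes CD103, was 2.91 lower in DN than in DP cells at week 4, as a difference of -2.91 (adjusted p = 0.00399), and differed by -3.89 at week 2 (adjusted p = 0.00159). Against SP cells, which also lack CD103 by label, Itgae differed by -2.08 at week 4 (adjusted p = 0.0602) and by -2.52 at week 2 (adjusted p = 0.0399). Cd69 differed between DN and DP cells by -1.33 at week 4 (adjusted p = 0.0332) and by -0.70 at week 2 (adjusted p = 0.358). Between DN and SP cells, which the label separates by CD69 protein, Cd69 did not pass at week 4 (-0.79, adjusted p = 0.288) or at week 2 (-0.95, adjusted p = 0.276). Of all genes, 8.46% to 13.9% were called between DN and another subset at week 4, and 0.483% to 0.89% at week 2.

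None of these 4 genes passed the test between week 4 and week 2. S1pr1 was at -1.81, -1.77 and -2.54 in the week 4 libraries and at -1.76, -2.29 and -1.67 in the week 2 libraries. The weeks overlapped, with a difference of -0.26 (SE 0.54, adjusted p = 0.841). Tcf7 was at 4.90, 4.91 and 4.31 at week 4 and at 4.97, 4.41 and 4.85 at week 2, also overlapping, with a difference of -0.13 (SE 0.30, adjusted p = 0.855). Replicate 3 had the lowest value of both genes at week 4. Itgae differed by 0.48 (adjusted p = 0.727) and Cd69 by -0.45 (adjusted p = 0.593).

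Between week 4 and week 2, 325 genes were called in DN cells, 3.08% of those tested. Of these, 66 rose (0.625% of all genes) and 259 fell (2.45%). The median difference over all genes was -0.09. The split depends on scaling: quantile normalization gave 64 higher and 116 lower, and shifting libraries to a common median gave 92 higher and 195 lower. The count rests on week 4 replicate 3, without which 122 genes were called, and on the near-identical pair, without which 7 were called. With the pair counted as 2 samples, 879 genes were called. Fitting the DN libraries of both weeks by themselves called 3 genes. Of the 325 genes, 121 (37.2%) were also called without replicate 3, while 165 (50.8%) were under quantile normalization and 261 (80.3%) under median rescaling. All 325 kept their direction in these 3 fits, with the pair counted as 2 samples, without the pair, and with the DN libraries of both weeks alone. This is no separate support, because the genes were selected from the same libraries. Fitting the DN libraries alone leaves each difference unchanged.

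The share of genes that fell was highest at the top of the table's scale, although 97 of the 259 lay there and the others lay at lower means. Among the 1041 genes with a mean value above 15, 97 fell (9.32%) and 1 rose, and their median difference was -0.52. Among the 1860 genes with a mean from 0 to 5, 18 fell (0.968%) and 19 rose (1.02%), with a median of -0.02. The median level was 12.0 for genes that fell, 6.39 for genes that rose and 8.30 for all genes. At week 6 the genes above 15 had a median difference from week 2 of 0.30, on the other side of 0. Restricting the test to genes with a mean from 0 to 15 left 173 calls. Whether the scale itself moved between weeks was not tested, and the largest falls, all above 15, are described apart below.

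**Figure D2:**
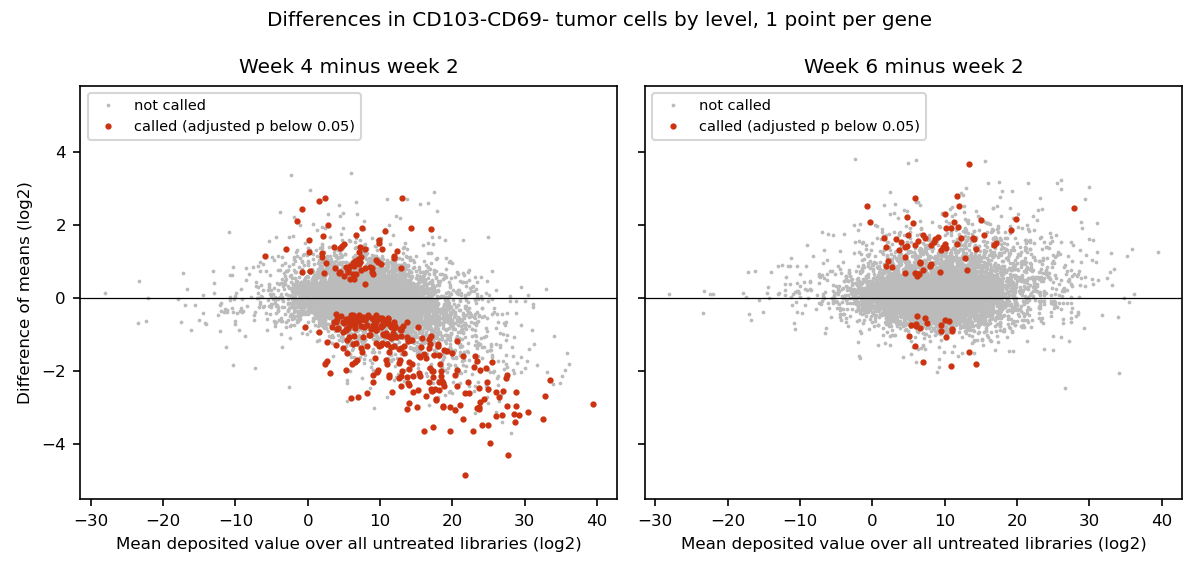
Each point is a gene of DN cells, placed by its mean deposited value over all untreated libraries and its difference of means in log2 units, week 4 minus week 2 on the left and week 6 minus week 2 on the right. Red points were called, and on the left 97 of the 259 lower calls have a mean above 15, where the cloud bends down to a median of -0.52.

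Genes were also read by role, in 36 lists holding 576 measured genes. Over these lists 14 genes were called at week 4 against week 2, a share below the 3.08% of all genes, so the lists as a whole hold no excess of calls. Without week 4 replicate 3 the lists held 5 calls, without week 2 replicate 1 or 3 they held 8 or 9, and without the near-identical pair 0. What follows gives the members that passed, and the values of the others.

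Immediate early genes are switched on within minutes of antigen receptor or stress signals and report recent stimulation. Of 26 measured members 2 fell at week 4, Nfkbia and Egr2, and none rose. In 20 members every week 4 library lay below every week 2 library, where this held for 29.1% of all genes, and 24 differences were negative. The list's median difference was -0.72, beside -0.09 over all genes. Negative differences were thus the more common over all genes too, and their share is not given here. Nfkbia encodes IkappaB-alpha, the inhibitor that NF-kappaB induces to shut itself off. It sits at 55489410 to 55492647 of chromosome 12, minus strand. Nfkbia was at 5.26, 5.29 and 5.64 in the week 4 libraries and at 6.58, 6.86 and 6.62 in the week 2 libraries. All week 4 values were below all week 2 values, and the difference was -1.23 (SE 0.26, adjusted p = 0.013). It stayed called on leaving out replicate 3 of week 4 or any week 2 library (highest adjusted p = 0.041) and was not called without the near-identical pair (adjusted p = 0.211). At week 6 it was at 6.39 and 6.57, near but below the week 2 values. Its rise over week 4 of 1.03 passed the test (adjusted p = 0.0386), which reuses the low week 4 values.

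The promoter of Nfkbia is shown because the gene is a textbook NF-kappaB target and the immediate early member with the smallest p. The RefSeq promoter on GRCm38.p6, chr12:55492598-55492897, is given on the gene's minus strand, from 250 bases before to 50 bases after its start, with the match to an NF-kappaB pattern in capitals. The letters searched on both strands were GGG, 3 bases of any kind, then TTCC.
Nfkbia: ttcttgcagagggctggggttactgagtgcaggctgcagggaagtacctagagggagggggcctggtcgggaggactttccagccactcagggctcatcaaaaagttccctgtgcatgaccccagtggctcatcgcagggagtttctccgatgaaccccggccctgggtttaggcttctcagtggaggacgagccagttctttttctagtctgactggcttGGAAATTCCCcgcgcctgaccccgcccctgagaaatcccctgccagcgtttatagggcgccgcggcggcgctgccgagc
The match reads on the other strand and begins 29 bases before the start. On either strand this pattern occurs in 5.56% of the 32851 promoters of the same length. A match is a description of letters and not a site in use.

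Egr2, a transcription factor induced by T-cell receptor signals and linked to T-cell anergy, was at 13.40, 13.41 and 13.77 at week 4, against 14.77, 14.62 and 14.85 at week 2. The groups did not overlap, and it fell by 1.16 on the log2 scale (SE 0.29, adjusted p = 0.0315). Without week 4 replicate 3 its adjusted p was 0.0746, without week 2 replicate 1 or 3 it also missed the threshold, and under quantile normalization it was 0.112. At week 6 Egr2 was at 12.87 and 13.03, lower still, and the difference from week 2 of -1.79 passed the test (adjusted p = 0.00592). Fos, Fosb and Jun, which form the AP-1 factor, had larger differences with larger errors. Fos was at 6.92, 7.11 and 7.80 at week 4 and at 9.13, 9.14 and 9.66 at week 2, a difference of -1.90 (SE 0.93, adjusted p = 0.277). Fosb differed by -2.32 (adjusted p = 0.171) and Jun by -1.67 (adjusted p = 0.217). Neither the phosphatase gene Dusp1 (-1.48, adjusted p = 0.275) nor Tnfaip3, which encodes the NF-kappaB inhibitor A20 (-1.40, adjusted p = 0.214), passed. The other end of the list held Cd83, an activation marker, at 0.46, and Myc, a growth regulator, at 0.00.

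Over the same weeks the list's median difference was -0.72 in DN cells, 0.34 in DP cells and -0.23 in SP cells. For Nfkbia the week 4 minus week 2 difference was -1.23 in DN cells, against 0.30 in DP cells, and the difference between those differences, -1.53 (SE 0.34), passed the test (adjusted p = 0.0392). Another AP-1 gene, Fosl2, differed by -0.20 in DN and by 1.98 in DP cells, a gap of -2.19 (adjusted p = 0.00918). The remaining 24 members did not pass this test, which 96 of all genes (0.909%) passed. The list itself was not tested.

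Heat shock and endoplasmic reticulum genes encode chaperones that fold proteins. Of 22 measured members 1 fell, Hsp90b1, none rose, and the median difference was -0.25, or -0.12 without the near-identical pair. Hsp90b1 encodes GRP94, the HSP90 chaperone of the endoplasmic reticulum, and sits at 86690209 to 86705509 of chromosome 10, minus strand. It was at 5.59, 5.57 and 5.52 at week 4, against 6.02, 6.08 and 5.98 at week 2. The values did not overlap, the spread within each week was small, and it fell by 0.47 (SE 0.11, adjusted p = 0.0227). The call was lost without week 4 replicate 3 (adjusted p = 0.134) and under quantile normalization (adjusted p = 0.0562). At week 6 it was back at 5.98 and 6.08, and its rise over week 4 passed (adjusted p = 0.0259) in a test that reuses the low week 4 values. Its partners in the folding response did not pass but lay on the same side: Calr, encoding calreticulin, differed by -0.50 (adjusted p = 0.0621), Hspa5, encoding BiP, by -0.50 (adjusted p = 0.0749), and Xbp1, the transcription factor of that response, by -0.84 (adjusted p = 0.0767). The cytosolic heat shock genes Hspa8 and Hsp90aa1 differed by -0.08 and -0.14.

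The Hsp90b1 promoter is shown because it is a classic carrier of the endoplasmic reticulum stress response element. It is RefSeq chr10:86705395-86705694 on GRCm38.p6, given on the minus strand of the gene, with its matches in capitals. The letters searched on both strands were CCAAT, 9 bases of any kind, then CCACG.
Hsp90b1: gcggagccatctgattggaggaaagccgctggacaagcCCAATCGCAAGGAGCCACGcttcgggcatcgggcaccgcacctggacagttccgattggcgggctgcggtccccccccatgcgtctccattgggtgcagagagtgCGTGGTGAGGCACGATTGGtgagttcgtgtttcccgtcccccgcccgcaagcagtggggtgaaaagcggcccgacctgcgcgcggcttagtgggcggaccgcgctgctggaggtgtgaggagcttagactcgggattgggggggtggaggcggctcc
One match reads on the strand given and begins 212 bases before the start, and the other reads on the reverse strand and begins 107 bases before it. The pattern occurs in 0.119% of promoters of the same length.

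Interferon-stimulated genes and the MHC class I pathway were read together, since interferon is known to drive both. Of 34 measured interferon-stimulated genes 1 fell, Gbp4, and none rose. In 27 every week 4 library lay below every week 2 library (29.1% over all genes). Of the differences 33 were negative, and the median was -0.46, beside -0.09 over all genes. Gbp4, a guanylate-binding protein, was at 9.45, 9.43 and 9.40 at week 4, against 10.00, 9.93 and 10.06 at week 2. The weeks did not overlap and the difference was -0.58 (SE 0.15, adjusted p = 0.0425). That call did not survive leaving out any 1 of the week 2 libraries or week 4 replicate 3, with adjusted p from 0.0512 to 0.185. At week 6 the list's median difference from week 2 was -0.41, and Gbp4 was at 9.56 and 9.53. The median was -0.31 in DP cells and -0.02 in SP cells over weeks 4 and 2.

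All 16 measured MHC class I pathway genes had negative differences, from -0.58 to -0.02, and none passed the test. Their median was -0.28, beside -0.09 over all genes, where negative differences were also the more common. The classical class I gene H2-D1 had the smallest p: it was at 8.73, 8.72 and 8.78 at week 4, against 8.98, 9.10 and 9.09 at week 2 (difference -0.30, SE 0.10, adjusted p = 0.0881). H2-K1, the other classical gene, differed by -0.33 (adjusted p = 0.091). Class I genes share near-identical stretches, so how reads were split among them is uncertain. At week 6 H2-D1 was at 9.09 and 9.10, and the list's median difference from week 2 was 0.01.

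Residency and checkpoint genes mark T cells held in tissue or under lasting antigen. None of 24 measured residency genes passed, and the median difference was -0.41. Rgs1, a regulator that dampens chemokine receptor signals, had the smallest p. It was at 6.09, 6.09 and 6.67 at week 4, against 7.31, 7.72 and 7.38 at week 2 (difference -1.09, SE 0.36, adjusted p = 0.101). Rgs1 was called when the near-identical pair counted as 2 samples (adjusted p = 0.03). That fit counts as 2 what is counted here as 1 sample, so it gives no support. None of 22 measured exhaustion and checkpoint genes passed either, with a median of -0.37. In 12 of them every week 4 library lay below every week 2 library, as in 29.1% of all genes. Ctla4, which encodes an inhibitory receptor, was at 6.65, 6.69 and 7.25 at week 4 and at 7.98, 8.04 and 8.16 at week 2 (difference -1.10, SE 0.49, adjusted p = 0.23). Pdcd1, encoding PD-1, differed by -0.78 (adjusted p = 0.286), and Spry1, which damps receptor signals, by -1.20 (adjusted p = 0.113). At week 6 the medians against week 2 were -0.47 for residency and -0.66 for checkpoint genes. In DP cells between weeks 4 and 2 they were 0.12 and 0.20. Nr4a3, a nuclear receptor gene of T-cell stimulation, was the 1 checkpoint member whose change differed between DN and DP cells, at -0.41 in DN and 1.34 in DP cells (adjusted p = 0.0218).

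Cytokines and chemokines of T cells held 1 call among 16 measured. Tnfsf11, which encodes RANKL, was at 7.63, 7.75 and 8.73 at week 4, against 10.66, 10.38 and 9.66 at week 2. Replicate 3 was again nearest to week 2, the groups did not overlap, and the gene fell by 2.02 (SE 0.55, adjusted p = 0.0475). Without week 4 replicate 3 or week 2 replicate 1 or 2 it was no longer called, with adjusted p up to 0.101, nor under quantile normalization (adjusted p = 0.0637). In DP cells the difference was 1.34, and the gap between DN and DP cells of -3.36 passed the test (SE 0.72, adjusted p = 0.0345). Ifng, encoding interferon-gamma, differed by -0.79 in DN cells (adjusted p = 0.23) and Tnf by -0.12 (adjusted p = 0.862).

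**Figure D3:**
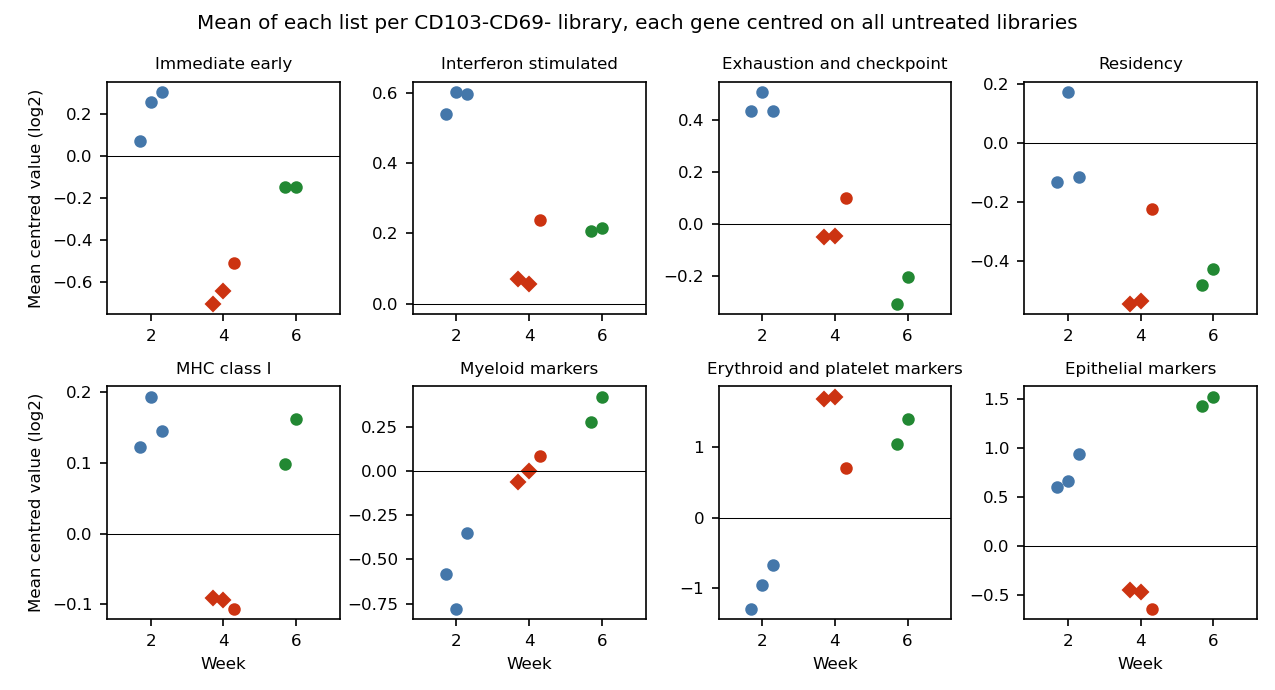
Each point is a DN library of week 2 (blue), 4 (red) or 6 (green), placed by the mean over a list's members after each gene was centred on all untreated libraries, in log2 units, with week 4 replicates 1 and 2 as diamonds. Immediate early, interferon-stimulated and checkpoint means lie lower at week 4 than at week 2, while myeloid and erythroid and platelet markers lie higher, and in the first 4 panels replicate 3 stands between the pair and week 2.

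Among 12 measured genes of egress and homing 1 rose. Arrb1 encodes beta-arrestin 1, an adaptor that uncouples and internalises G-protein-coupled receptors and is no homing receptor itself. It sits at 99535466 to 99606771 of chromosome 7, plus strand. Arrb1 was at 10.28, 10.28 and 10.02 at week 4, against 9.03, 9.18 and 9.30 at week 2. The values did not overlap and the difference of 0.98 (SE 0.16, adjusted p = 0.00309) remained called on leaving out week 4 replicate 3 or any week 2 library (highest adjusted p = 0.00959), though not without the near-identical pair (adjusted p = 0.11). At week 6 it was at 9.78 and 9.81, between the other weeks. Klf2, a transcription factor known to drive S1pr1, differed by -0.77 (adjusted p = 0.521) and Ccr7, the lymph node chemokine receptor gene, by 0.19 (adjusted p = 0.891). The median of the list was -0.11.

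None of 16 measured regulators of stem-like and naive T cells passed, and their median was -0.01. Satb1, a chromatin organiser, had the smallest p with a difference of 0.49 (adjusted p = 0.317). None of 14 effector memory genes passed (median -0.06), nor any of 14 cytotoxic genes (median -0.10), 26 T-cell identity genes (median -0.17), 37 proliferation genes (median -0.24) or 24 glycolysis and hypoxia genes (median 0.07). Chemokine receptors and integrins held 1 call among 21, Cxcr5, the follicle-homing receptor gene. Cxcr5 was at 1.86, 1.85 and 1.66 at week 4, against 0.23, -0.17 and 0.45 at week 2 (difference 1.59, SE 0.43, adjusted p = 0.0489), without overlap, and leaving out any 1 of week 4 replicate 3 or the week 2 libraries ended the call (adjusted p from 0.0535 to 0.157). Among 75 ribosomal protein genes Rpl27 fell, by 1.06 (adjusted p = 0.0425), and the median was -0.02. The Rpl27 call was lost without week 4 replicate 3, where the difference was -1.23, and without week 2 replicate 2 or 3. It was also lost under quantile normalization (adjusted p = 0.117) and median rescaling (adjusted p = 0.06).

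The members with the smallest p in other lists without a call did not pass either. They include Smad7, the inhibitor of TGF-beta signals (-0.59, adjusted p = 0.0507), S100a11, a calcium-binding protein gene (-0.75, adjusted p = 0.059), and Uqcrb, of respiratory complex III (-1.05, adjusted p = 0.0636). Tyrobp, the adaptor DAP12 of natural killer and myeloid cells, differed by 1.47 (adjusted p = 0.074) in a list of 13 natural killer receptor genes whose median was -0.50. P4ha1, a hypoxia-induced collagen hydroxylase gene, differed by 0.63 (adjusted p = 0.08) and Mcm6, a replication helicase gene, by -0.55 (adjusted p = 0.091). The costimulatory receptor gene Cd27 differed by -0.50 (adjusted p = 0.171) and the cytokine receptor gene Il10rb by 0.42 (adjusted p = 0.135).

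**Figure D4:**
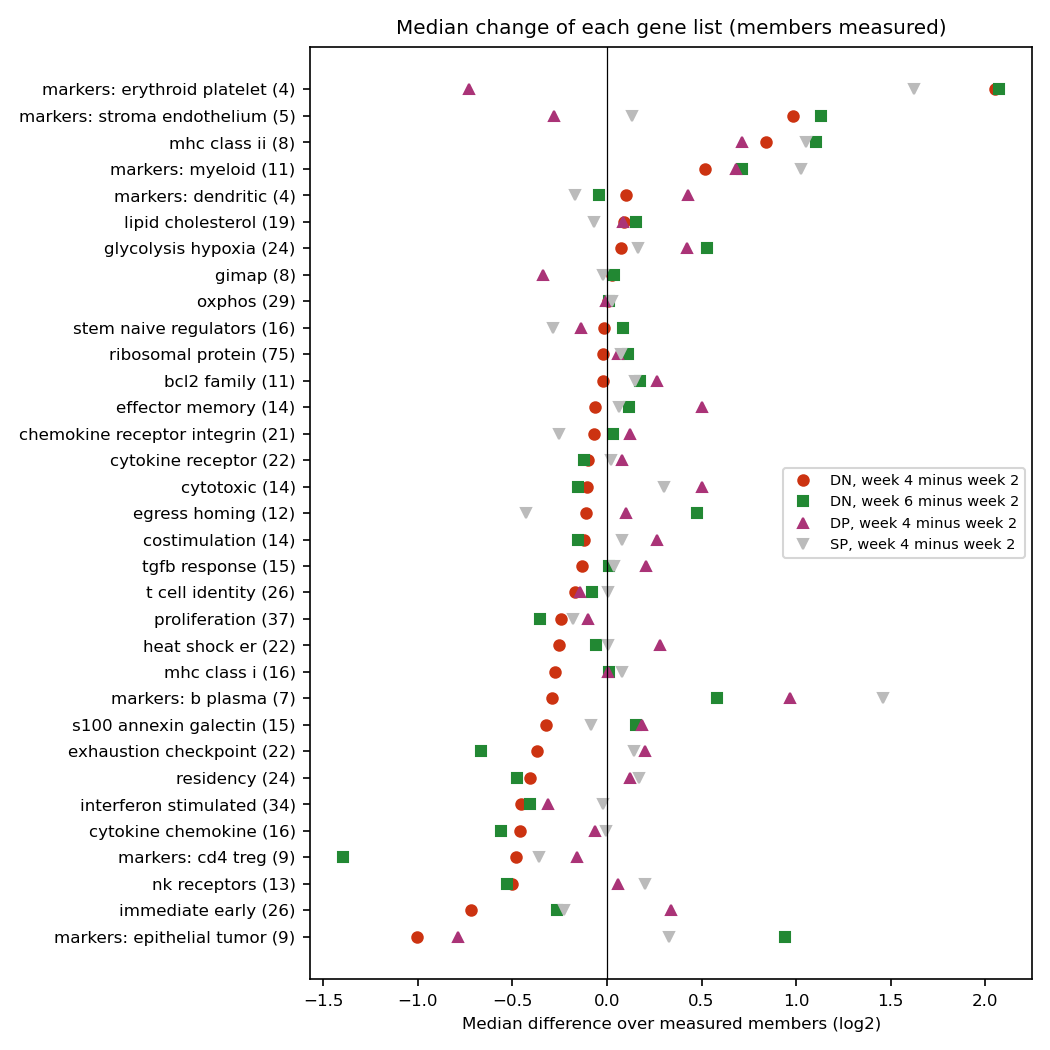
Each row is a gene list with at least 4 measured members, their number in brackets, and each mark is the median difference over members in log2 units for DN week 4 minus week 2 (red), DN week 6 minus week 2 (green), DP week 4 minus week 2 (purple) and SP week 4 minus week 2 (grey). The immediate early list lies at -0.72 in DN, 0.34 in DP and -0.23 in SP cells. Erythroid and platelet markers lie at 2.05 in DN, -0.73 in DP and 1.62 in SP cells.

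Among called genes the largest rise was that of Il1b, the inflammatory cytokine of myeloid cells, at 129364570 to 129371139 of chromosome 2, minus strand. It was at 2.03, 2.14 and 2.81 at week 4, against -0.42, 0.69 and -1.12 at week 2. The weeks did not overlap and the difference was 2.73 (SE 0.55, adjusted p = 0.011). Without week 4 replicate 3 its adjusted p was 0.101. In DP cells Il1b also rose between the weeks, by 2.29 (adjusted p = 0.0164), and in SP cells it differed by 1.71 (adjusted p = 0.502). Hmox1, encoding the heme-degrading enzyme heme oxygenase 1, was at 0.34, 0.46 and -0.08 at week 4, against -2.36, -1.69 and -2.80 at week 2 (difference 2.45, SE 0.60, adjusted p = 0.0305). It stayed at -0.13 and 0.63 at week 6, and the difference from week 2 of 2.53 passed there too (adjusted p = 0.0495). Without week 4 replicate 3 the week 4 call was lost (adjusted p = 0.0922), as it was without week 2 replicate 1 or 3.

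Alas2, the first enzyme of heme synthesis in red cell precursors, was at 3.73, 3.67 and 2.24 at week 4, against -0.43, 0.24 and 1.14 at week 2, a rise of 2.65 (SE 0.72, adjusted p = 0.0475). Replicate 3 was the lowest of week 4 but still above week 2. Alas2 differed by -0.41 in DP cells (adjusted p = 0.824) and by 2.71 in SP cells (adjusted p = 0.351), close to the DN difference. Leaving out week 4 replicate 3 or week 2 replicate 1 or 2 ended the call, with adjusted p up to 0.111, as did quantile normalization (adjusted p = 0.0585). Its promoter is shown because erythroid genes are known to be driven by GATA factors. It is RefSeq chrX:150547167-150547466 on GRCm38.p6, plus strand, with the match to AGATAA, searched on both strands, in capitals.
Alas2: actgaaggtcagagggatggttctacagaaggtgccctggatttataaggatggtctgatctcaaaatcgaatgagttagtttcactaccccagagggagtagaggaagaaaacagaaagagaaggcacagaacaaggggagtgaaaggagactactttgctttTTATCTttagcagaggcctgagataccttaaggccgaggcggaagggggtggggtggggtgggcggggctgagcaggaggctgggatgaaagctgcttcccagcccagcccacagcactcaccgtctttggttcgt
The match reads on the reverse strand and begins 86 bases before the start, and 11.2% of promoters of the same length hold the pattern.

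Of the other large rises, Aplf was the 1 that remained called on leaving out week 4 replicate 3 or any week 2 library (highest adjusted p = 0.0314). Aplf, a DNA break repair factor, was at 10.97, 10.96 and 10.58 at week 4, against 8.54, 9.59 and 9.41 at week 2 (difference 1.59, SE 0.31, adjusted p = 0.0101). Its difference was -0.20 in DP cells. Chst15, a chondroitin sulfate sulfotransferase gene, rose by 2.01, Cyp4f18, a fatty acid and leukotriene hydroxylase gene, by 1.92, and Aldh3b1, an aldehyde dehydrogenase gene, by 1.90. Pard6a, of the cell polarity complex, rose by 1.84, the orphan receptor gene Gpr162 by 1.73, the zinc finger gene Zfp516 by 1.497, Snn by 1.48 and Arrdc4, an arrestin-domain gene, by 1.43. The annotation mmu-mir-1900 rose by 1.70, and whether its reads came from an overlapping transcript was not tested. These 9 had adjusted p from 0.0217 to 0.0426, and each lost its call without week 4 replicate 3.

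The largest falls all had a mean value above 15, where the whole class had a median of -0.52. Krt19, an epithelial keratin gene at 100140810 to 100148665 of chromosome 11, minus strand, was at 17.47, 17.53 and 18.42 at week 4, against 21.75, 23.63 and 23.02 at week 2. It fell by 4.84 (SE 0.81, adjusted p = 0.00309). Over the same weeks it differed by -1.62 in DP cells (adjusted p = 0.293) and by -2.31 in SP cells (adjusted p = 0.55). At week 6 Krt19 was at 24.13 and 24.16 in DN cells, above every week 2 library. Its rise over week 4 of 6.19 passed (adjusted p = 0.00071) in a test that reuses the low week 4 values. The call held on leaving out week 4 replicate 3 or any week 2 library (highest adjusted p = 0.0123) and not without the near-identical pair (adjusted p = 0.109).

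F2rl3, which encodes the thrombin receptor PAR4, at 72761880 to 72763874 of chromosome 8, plus strand, had the smallest p of these falls. It was at 13.58, 13.60 and 13.53 at week 4, against 17.10, 18.003 and 16.51 at week 2, a difference of -3.64 (SE 0.52, adjusted p = 0.000899). Among the 38 named genes that were called, F2rl3 alone was still called without the near-identical pair (adjusted p = 0.0426). At week 6 it was at 17.92 and 17.41. H19, an imprinted noncoding RNA, fell by 4.30 (adjusted p = 0.0171), a call lost without week 4 replicate 3 (adjusted p = 0.0503) or week 2 replicate 3. Chic1 fell by 3.62 and Gab1, a docking protein of receptor signals, by 3.47. Tmem56 fell by 3.64 and Ormdl2, a regulator of sphingolipid synthesis, by 3.46. These 4, with Tepp, Rnf152, Fuom and Nradd, held when any 1 of week 4 replicate 3 or the week 2 libraries was left out. Under quantile normalization these 4 were still called (adjusted p from 0.00867 to 0.0283). Tepp (adjusted p = 0.0688), Rnf152 (0.055), Fuom (0.117), Nradd (0.102) and H19 (0.126) were not called there. Syna, encoding syncytin A, Asic3, an acid-sensing channel gene, and Cnksr3 fell by 3.31, 3.22 and 3.18 and did not hold.

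**Figure D5:**
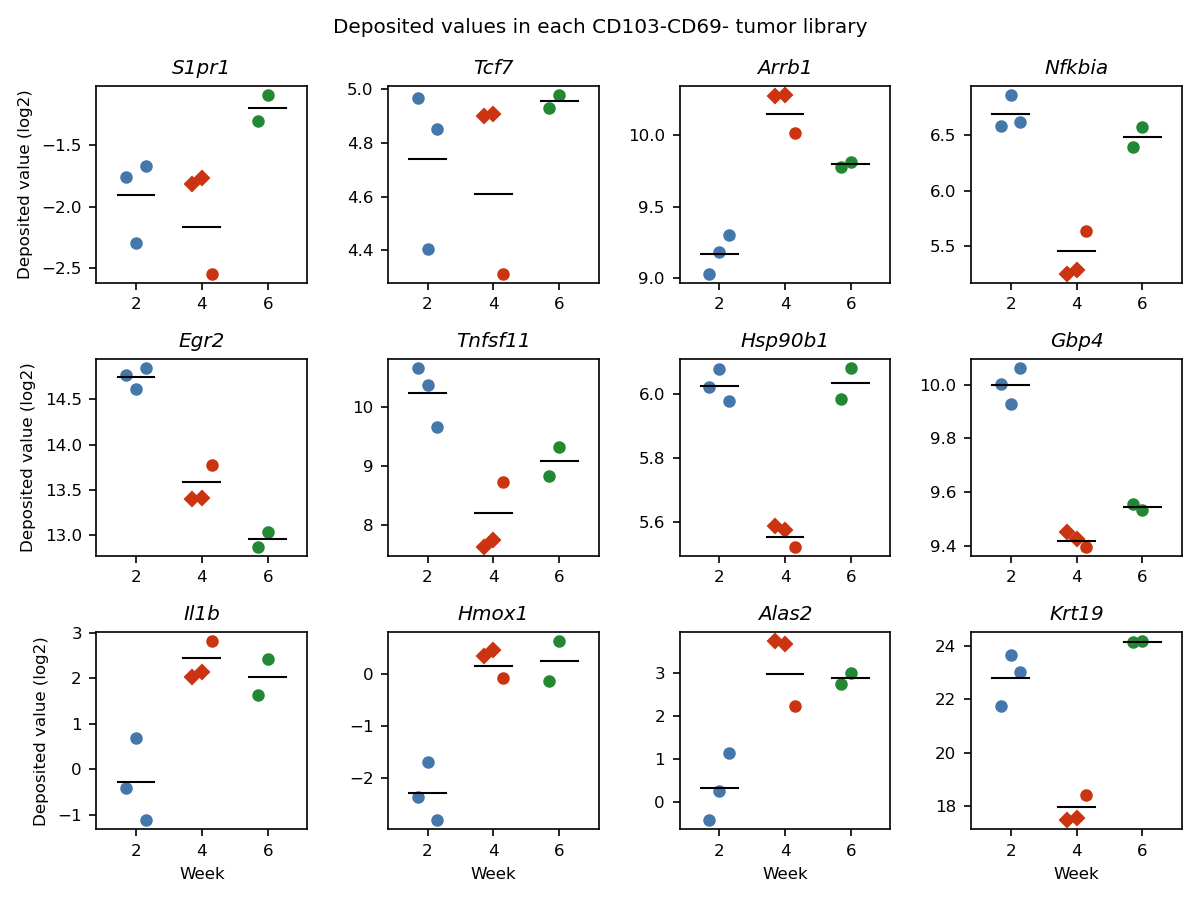
Each panel shows a gene's deposited value in log2 units in every DN library at weeks 2, 4 and 6, with week 4 replicates 1 and 2 as diamonds and a bar at the mean, in which that pair counts once. S1pr1 and Tcf7 overlap between weeks 2 and 4, while Nfkbia, Egr2, Hsp90b1, Gbp4, Tnfsf11 and Krt19 lie lower at week 4 than at week 2 and Arrb1, Il1b, Hmox1 and Alas2 lie higher.

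Markers of other cell types moved between the same weeks, and their part in the results above was not tested. Of 21 listed myeloid markers 11 were measured, 10 of these differences were positive and none was called. The median difference was 0.52, beside -0.09 over all genes. Over the same weeks it was 0.68 in DP and 1.03 in SP cells, so this rise was not particular to DN cells. The list's mean per library ran from -0.06 to 0.09 at week 4, against -0.78 to -0.35 at week 2. Lyz2, encoding lysozyme of macrophages and granulocytes, was at -0.52, -0.45 and -0.41 at week 4, against -1.71, -2.22 and -1.94 at week 2 (difference 1.51, SE 0.42, adjusted p = 0.0505). At week 6 it was at 0.17 and 0.05, and that difference from week 2 of 2.07 passed (adjusted p = 0.0251). Between weeks 4 and 2 Lyz2 differed by 1.04 in DP cells (adjusted p = 0.176) and by 1.06 in SP cells (adjusted p = 0.61). The 8 measured MHC class II genes, which B cells and myeloid cells use to present antigen, had a median difference of 0.84 with none called. Their median was 0.72 in DP and 1.05 in SP cells. Of 11 listed neutrophil markers 3 were measured, and Il1b was called. The markers split: 1 of the 3 lay lower in every week 4 library than in every week 2 library, with a difference of -1.14. The neutrophil genes S100a8 and S100a9 and the macrophage gene Adgre1 were not found under these names among the genes with values.

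All 4 measured erythroid and platelet markers lay higher in every week 4 library than in every week 2 library, where 13.7% of all genes did, and 1 was called. The list's mean ran from 0.70 to 1.70 at week 4, against -1.28 to -0.68 at week 2. Its median difference was 2.05 in DN, -0.73 in DP and 1.62 in SP cells, so the rise was not particular to DN cells. The hemoglobin gene Hba-a2 was at -0.14, 0.00 and -1.03 at week 4 and at -3.81, -4.59 and -3.37 at week 2 (difference 3.38, SE 1.18, adjusted p = 0.12). In DP cells its difference was -3.39, and the gap of 6.77 between DN and DP cells passed the test (adjusted p = 0.0451). Reads of hemoglobin copies can be split between near-identical genes.

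Epithelial markers, which the tumor cells can give, went the other way. All 9 measured members had negative differences with a median of -1.004, and Krt19 was called. That median was -0.54 without week 4 replicate 3 and -0.67 without week 2 replicate 3. Over all genes the median was -0.09, and the list's median was -0.79 in DP and 0.33 in SP cells. In DN cells the list's mean ran from -0.64 to -0.46 at week 4, against 0.60 to 0.94 at week 2, and reached 1.42 and 1.52 at week 6. Between weeks 6 and 4, 4 of the 9 were called higher, Krt19, Krt5, Epcam and Spint2, as were 4.25% of all genes. That test reuses the low week 4 values, so it is no separate support. Of 9 measured CD4 and regulatory T-cell markers Foxp3, the regulatory T-cell factor gene, fell by 2.85 (SE 0.57, adjusted p = 0.0106). Its mean value is above 15, in the class with a median of -0.52. It was at 20.59, 20.57 and 21.84 at week 4, against 23.89, 23.52 and 24.76 at week 2, and under quantile normalization it was not called (adjusted p = 0.102). Cd4 differed by 0.47 (adjusted p = 0.656). B-cell and plasma-cell markers split: Cd22 rose by 1.40 (adjusted p = 0.035) and Mzb1 fell by 2.87 (adjusted p = 0.0403) among 7 measured. Both calls were lost without week 2 replicate 3. Mzb1 was also not called without week 2 replicate 1 (highest adjusted p = 0.116) or under quantile normalization (adjusted p = 0.0713). Cd22 also lost its call without week 4 replicate 3, where its difference was 1.38. The 5 measured stroma and endothelium markers had a median of 0.99 with none called, and of 0.40 without the near-identical pair.

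Week 6 gave a further point with 2 libraries. Between weeks 6 and 4, 495 genes were called (4.69%), 449 higher (4.25%) and 46 lower (0.436%). Between weeks 6 and 2 there were 82 (0.777%), 62 higher (0.587%) and 20 lower (0.189%). These comparisons share libraries with the one above and are set beside it only as values. Genes named for low week 4 values are favoured in the test of week 6 against week 4, so those passes are not separate support. The 66 genes that rose at week 4 had a median difference of 1.06 at week 4 and of 0.54 at week 6, both from week 2. The 259 that fell had medians of -1.37 and -0.09. Glycolysis and hypoxia genes, of which none was called at week 4, had 4 higher and none lower of 24 at week 6 against week 2, with a median of 0.53. Bnip3, a hypoxia-induced mitophagy gene, was at 10.40, 10.66 and 10.09 at week 2, at 10.45, 10.44 and 10.97 at week 4 and at 12.75 and 12.18 at week 6, a difference of 2.08 over week 2 (adjusted p = 0.0134). Aldoa, an enzyme of glycolysis, rose by 0.89 (adjusted p = 0.0113) and Vegfa, an angiogenic factor gene, by 2.29 (adjusted p = 0.0316) over week 2. The counts of week 6 rest on each of its libraries: leaving out replicate 1 or 2 left 2 and 3 calls against week 2, and 163 and 188 against week 4. Leaving out week 2 replicate 3 left 32 calls between weeks 6 and 2, and leaving out week 4 replicate 3 left 198 between weeks 6 and 4.

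The change between weeks 4 and 2 was compared between subsets by testing the difference of the differences. In DP cells 89 genes were called (0.843%), 63 higher (0.597%) and 26 lower (0.246%), and 45, 37 and 51 without week 4 replicate 1, week 4 replicate 3 or week 2 replicate 1. In SP cells 0 genes were called by limma, with 774 at an unadjusted p below 0.05. The change differed between DN and DP cells for 96 genes (0.909%), 15 with a more positive change in DN cells (0.142%) and 81 with a more negative one (0.767%). It differed between DN and SP cells for 8 genes (0.0758%), all more negative in DN cells, F2rl3 among them (-3.83, adjusted p = 0.0456). Without DN week 4 replicate 3 these counts were 35 and 0, and without the near-identical pair 1 and 0. Leaving out 1 of the DP libraries gave 37 to 136 genes between DN and DP cells, and leaving out 1 of the SP libraries gave 1 to 34 between DN and SP cells. Testing only genes with a mean from 0 to 15 gave 27 genes between DN and DP cells. Changes in DN cells that passed neither test are not shown to be shared with the other subsets.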

How the data were processed

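The cells were isolated by sorting. Libraries were made with the QuantSeq FWD kit from 10 ng of RNA and read to 75 bp, per the labels' protocols and the design text of the series. The submitters' processing notes name HISAT2, HTSeq and mm10 but no version or strand setting, so overlapping genes on opposite strands cannot be told apart. The authors deposited 1 table of normalised values on a log scale for the 43 untreated libraries, and log2 is inferred from the values. The normalisation is not given in the sources used here. The table of libraries under checkpoint blockade was not used here. Depth per library is unknown.

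The table had fewer independent directions than libraries: its rank after centring was 32, and residuals from 15 group means had a rank of 18 against 28 degrees of freedom. DN week 4 replicates 1 and 2 were averaged and counted as 1 sample, a departure from the planned fit made after seeing the data, which left 42 replicates, 27 residual degrees of freedom and a residual rank of 18. limma 3.58.1 (R 4.3.3, statmod 1.5.0) fitted group means over all groups with the trend and robust options. Residual degrees of freedom were multiplied by 0.6667 and variances divided by it. P-values were adjusted by Benjamini-Hochberg over all 10560 genes, with no filter, and the script was tested on simulated data. Replicate numbers did not pair libraries across weeks.

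The comparison, members and gene lists were chosen with earlier results of these data known. Named genes were the 14 largest rises and falls among called genes whose weeks did not overlap, leaving out predicted genes, with S1pr1, Tcf7, Itgae, Cd69, and each list's called members or its member with the smallest p. Other list members named beside them were chosen after their values were seen. A few genes that the rule names are not reported here. Gene positions are from GENCODE M21 on GRCm38, which is mm10, and promoters from RefSeq. Alternatives were design-based degrees of freedom, quantile or median scaling, a filter, no trend or robust option, fewer libraries, a replicate block and leaving out libraries. Added after seeing the data were the pair counted separately, both of its libraries left out, and genes with a mean from 0 to 15.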

Additional observations from a re-analysis of the deposited data

Results flagged for a closer look

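Several results were picked out because a change between weeks 4 and 2 differed between subsets by a test of that difference. Between DN and DP cells this held for 96 genes. Among the named genes, the change was more positive in DN cells for Aplf (by 1.79). It was more negative in DN cells for Chic1 (-3.94), Fuom (-3.61), Ormdl2 (-3.57), Tnfsf11 (-3.36), Gab1 (-3.15), Nfkbia (-1.53) and Smad7 (-0.90). Smad7 did not pass the test within DN cells (adjusted p = 0.0507). Between DN and SP cells it held for 8 genes, with F2rl3 at -3.83. The subsets were compared across different libraries of the same weeks, and whether the same tumors gave them is not stated.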

How the results depend on the processing

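The count of genes called between DN weeks 4 and 2, 325 as reported, was 1467 with design-based degrees of freedom, 180 under quantile normalization, 3 with only the groups compared, 879 with the near-identical pair counted separately and 173 for genes with a mean from 0 to 15. Leaving out libraries gave 7 to 327. With those settings in the same order, weeks 6 and 4 (495) gave 1649, 229, 741, 942 and 274 genes, and 24 to 496 on leaving out libraries. Weeks 6 and 2 (82) gave 654 with design-based degrees of freedom, 23 with only the groups compared and 2 to 115 on leaving out libraries. DP cells (89) gave 728 and 511 in those fits and 37 to 84, and SP cells (0) gave 81 with design-based degrees of freedom and 0 to 15. The DN and DP difference (96) gave 948, 732 with only the groups compared, 300 with the pair separate, 27 for means from 0 to 15 and 1 to 136. The DN and SP difference (8) gave 584 with design-based degrees of freedom, 0 under either scaling, with only the groups compared or for means from 0 to 15, 27 without the trend and robust options, 40 with the pair separate and 0 to 34. Calls in lists (14) gave 68, 5, 0, 41 and 6 in the order of the first comparison, and 0 to 15.

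A replicate block could be fitted with the pair counted separately. It gave 1065, 1006, 428, 103 and 48 calls for weeks 4 and 2, weeks 6 and 4, DN against DP, DN against SP and the lists. Same-numbered DN libraries correlated by -0.0465 to 0.0528, so the numbers name samples only. The split of higher and lower calls between weeks 6 and 4, 449 and 46, was 129 and 100 under quantile normalization and 294 and 92 under median rescaling, and between weeks 6 and 2, 62 and 20, it was 36 and 32 under quantile normalization and 45 and 22 under median rescaling. Of 998 values of 64 named genes under alternatives, 786 kept their side of the threshold, 170 lost a call, 42 gained one and 0 changed the direction of a call. Several alternatives change only the error or the genes tested and leave each difference as it was. No change of direction could occur in those. Of the 38 named genes called, 14 held on leaving out week 4 replicate 3 or any week 2 library, 9 of those also under quantile normalization, and 1 without the near-identical pair. List medians moved in 57 of 575 cases. Fits with 1 library at a week assume that it varies like the other groups. With depth unknown, counting error could not be given.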

Other observations

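The 2 DN libraries of week 1, which enter no comparison above, were unlike each other. Replicate 2 lay a median of 0.238 to 0.241 log2 units per gene from the week 4 libraries, nearer than its own group's replicate 1 at 0.308. Its immediate early mean was -0.40 and that of replicate 1 was -0.53, against -0.70 to -0.51 at week 4 and 0.07 to 0.31 at week 2. F2rl3 was at 16.32 and 16.05 at week 1, closer to the week 2 than to the week 4 values. Krt19 was at 20.25 and 19.29.

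The 7 genes called without the near-identical pair were all lower at week 4. Besides F2rl3 they were Blcap (-1.72), Gorab (-2.60), Ptrh2 (-1.55), Rad9b (-2.36), Slc25a28 (-1.22) and Spsb2 (-2.88), each at an adjusted p of 0.0426. They rest on week 4 replicate 3 as the only library of its week, and were named after their values were seen.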
